A study of Mus musculus with 3 samples.

Results

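Cytosolic ribosomal proteins were examined in the liver of male mice lacking apolipoprotein E that had eaten 1 of 3 diets. The genes were those whose probe sets on an Affymetrix mouse array carried a single annotated symbol beginning Rpl or Rps followed by a number, or Rplp0, Rplp1, Rplp2 or Rpsa, so that ribosomal S6 kinases and mitochondrial ribosomal proteins were left out. This rule took 47 probe sets of 33 genes, out of 8251 genes with a single symbol on the array, of which 15 encode large subunit proteins, 1 the stalk protein Rplp0 and 17 small subunit proteins. All mice, controls included, were homozygous for the apoE knockout on a C57BL/6JxOLA129 background, were 3 months old at the start and ate their diet for 12 weeks. The control diet held 1.0% linoleic acid by weight. In the other diets the same amount of a conjugated linoleic acid (CLA) took its place, either the c9,t11 or the t10,c12 isomer, whose double bonds differ in place and geometry. By the design text the diets were semi-purified, with 30% of the energy from fat, whereas the sample labels speak of a western diet, a difference that was not resolved here. The study assigned 29 mice, with 10 on control, 10 on the c9,t11 and 9 on the t10,c12 isomer, and each diet is represented here by 1 array. The labels do not say whether that RNA came from 1 animal or several. No difference below has a replicate check, and none was tested.

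Ribosomal proteins are the protein part of the small and large ribosomal subunits, which assemble with ribosomal RNA in the nucleolus and join in the cytosol to translate messenger RNA. Liver, which secretes most plasma proteins, makes large amounts of them. Their messengers start with a terminal oligopyrimidine (TOP) tract, a stretch of C and T bases through which growth signals passing by the kinase mTORC1 control their translation together with that of elongation factors and some other proteins. That control acts on translation, which an array of messenger RNA does not measure.

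The values were MAS5 signals, one hybridisation intensity per probe set on a linear scale. Each gene was represented by its brightest probe set, and it counted as measured where that probe set exceeded a floor, the pooled median signal of 490.4, on both arrays compared. The arrays shared a trimmed mean signal of about 1501, and their ceilings were 70778 on control, 135007 for c9,t11-CLA and 71111 for t10,c12-CLA. The ratio of 3′ to 5′ signals is a sign of RNA integrity. For Gapdh it was 1.06 on control, 0.98 on c9,t11-CLA and 0.78 on t10,c12-CLA. For beta-actin it was 1.40, 1.89 and 1.35 in the same order, so it was highest on c9,t11-CLA. All 6 hepatocyte markers (Alb, Ttr, Apoa2, Tat, Cps1 and Ass1) were above the floor on every array, and none of the 3 bile duct markers was above it on any.

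Of the 33 ribosomal protein genes, 24 were above the floor on all 3 arrays, 2 on some and 7 on none. The geometric mean signal over the arrays had a median of 10268 over the 33 genes, against 663.4 over all genes. The 7 genes below the floor on every array were Rpl35a, Rpl38, Rpl39, Rps15 and Rps20 and the paralogues Rpl39l and Rps27l. For instance, Rps15 was listed at 16.4 on control, 245.9 on c9,t11-CLA and 60.2 on t10,c12-CLA. Signals this low have no order that can be read, and they do not show that these genes were silent. In genes with several probe sets the signals were far apart. The brightest probe set of Rps4x, the X-linked S4 protein, gave 21755 on control, 18825 with c9,t11-CLA and 18832 with t10,c12-CLA, while its 4 other probe sets lay between 33.5 and 725.0. Likewise Rpl7 had a second probe set between 67.1 and 81.1 beside one between 17358 and 22495.

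**Figure D1:**
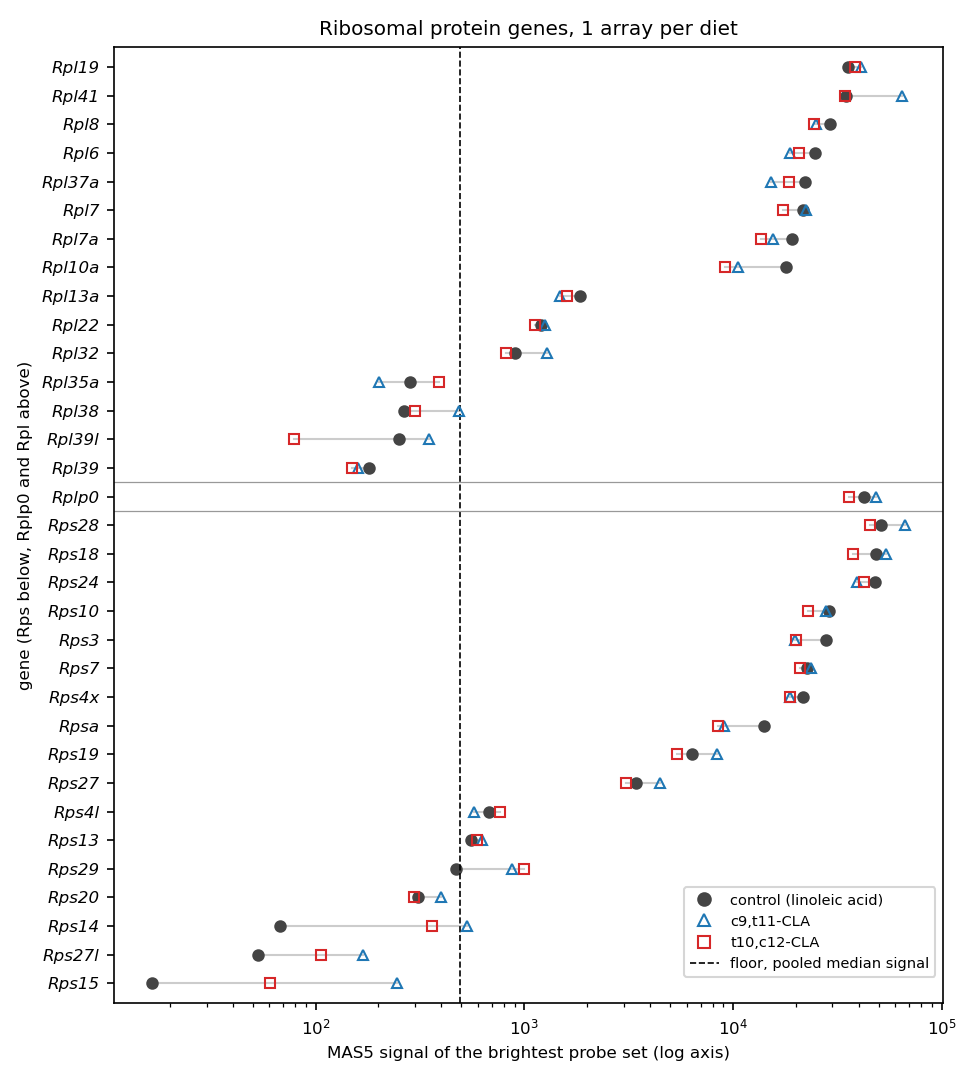
MAS5 signal on a log axis (x) for the brightest probe set of each of the 33 ribosomal protein genes (y), with 1 point per diet array and the floor of 490.4 as a dashed line. Most of the genes above the floor lie beyond 10000, and for Rpl10a, Rpsa and Rps3 the control point stands to the right of both CLA points.

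Promoter sequences from RefSeq (GRCm38.p6), each running from 250 bases before to 50 after an annotated start, were found for 26 of the 33 genes. They are shown because these genes are grouped with other TOP messengers by a tract at the messenger start. The letters are also independent of the signals. A pyrimidine run as counted here may lie before the start or well after it, so it is not a measure of TOP tracts. A run of at least 8 pyrimidines (C or T on the sense strand, from 20 bases before to 50 after the start) was present in 18 of the 26 genes, or 69.2%, against 28.5% of all 27018 genes in the promoter table. The letters CTTCCG, searched on both strands and read as CGGAAG on the other, hold the core recognised by ETS transcription factors. They lay within the 300 bases of 18 of the 26, again 69.2%, against 18.8% of all genes and 29.6% of the other genes on the array. AAGATGG on either strand, the core bound by YY1, lay in 6 of 26 (23.1% against 7.28% of all genes), and TATAAA on the sense strand in 3 (11.5% against 9.77%). CTTCCG can overlap a pyrimidine run. The mitochondrial ribosomal protein genes held the run in 13 of 54, CTTCCG in 28 of 54 and AAGATGG in 11 of 54 (20.4%). A gene with several annotated starts was counted once if any start held the letters. With genes of 1 start only, the run was in 12 of 19 members (63.2%) against 25.3% of all such genes. The motifs were chosen after the sequences had been seen, and a match is a description of letters and not a site. The windows shown run from 60 bases before to 30 after the start, 5′ to 3′ on the gene's strand, for the genes named most often in what follows. Capitals mark runs of 8 or more pyrimidines and CTTCCG or CGGAAG.
Rpl10a, chr17:28328505-28328594, plus strand: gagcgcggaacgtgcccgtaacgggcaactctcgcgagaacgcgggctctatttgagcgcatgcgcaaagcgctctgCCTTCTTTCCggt
Rpsa, chr9:120127706-120127795, plus strand: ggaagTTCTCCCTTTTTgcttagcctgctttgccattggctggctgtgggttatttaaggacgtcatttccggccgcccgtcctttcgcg
Rpl7a, chr2:26910747-26910836, plus strand: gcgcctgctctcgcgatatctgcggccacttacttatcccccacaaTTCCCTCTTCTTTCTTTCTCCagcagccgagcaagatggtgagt
Rps3, chr7:99483680-99483769, minus strand: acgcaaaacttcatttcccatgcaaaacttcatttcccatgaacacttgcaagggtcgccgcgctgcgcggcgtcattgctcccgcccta
Rps18, chr17:33955636-33955725, minus strand: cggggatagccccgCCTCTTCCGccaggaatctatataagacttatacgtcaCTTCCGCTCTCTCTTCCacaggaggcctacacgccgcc
Rpl37a, chr1:72711200-72711289, plus strand: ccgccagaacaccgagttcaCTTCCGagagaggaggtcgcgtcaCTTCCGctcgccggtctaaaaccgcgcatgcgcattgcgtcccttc
Rpl41, chr10:128549139-128549228, minus strand: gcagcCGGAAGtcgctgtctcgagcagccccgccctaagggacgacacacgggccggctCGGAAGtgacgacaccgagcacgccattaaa
Of these, Rpl10a, Rpl7a, Rps18, Rpl37a and Rpl41 carry a run from 20 bases before to 50 after the start. In Rpl37a it ends beyond the printed window, and in Rpl41 it lies wholly beyond it. The printed windows of Rps18, Rpl37a and Rpl41 hold 2 copies each of CTTCCG or its reverse complement. The run of Rpsa lies upstream, and no capital falls in the window of Rps3. For Rpl10a the second of its annotated starts is shown.

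The comparison of t10,c12-CLA with control asked how that isomer differed from linoleic acid at the same dose and time. Ribosomal protein genes were lower on the t10,c12-CLA array in 21 of 24 measured cases, with a median log2 difference of -0.22 and a range of -0.97 to 0.17. Among all 4391 measured genes, 50.9% were below 0 and the median was -0.01. The differences were small, with none of the 24 at least 2-fold lower (1.87% of all genes were) and 2 at least 1.5-fold lower (8.7% of all genes). None of the 24 was 2-fold or 1.5-fold higher, against 2.05% and 9.31% of all genes. Rps29, a small subunit protein, is not among the 24 because its control signal of 471.3 lay just below the floor. It gave 999.6 on t10,c12-CLA, at least 2.04-fold higher, and it makes 1 gene 2-fold higher with quantile normalization or the 25th percentile floor. So the counts past a fold were not above those of all genes, and it was the direction that most members shared. With quantile normalization 20 of 25 were below 0, with a median of -0.19, and with equal array medians 21 of 25, with a median of -0.30 where that of all genes moved to -0.09. From a single array per diet, fewer cells of a type and less RNA per cell cannot be told apart.

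The probe set of Rpl10a, a large subunit protein of the mobile L1 stalk, gave 17925 on control, 10554 on c9,t11-CLA and 9124 on t10,c12-CLA. It was 1.96-fold lower on t10,c12-CLA than on control, and a second one, with a suffix that warns of cross-hybridisation, gave 6935, 4672 and 2710, which is 2.56-fold lower. Both probe sets had control highest and t10,c12-CLA lowest. Rpsa, a small subunit protein also known as the laminin receptor, gave 14084, 9088 and 8457 in the same order, 1.67-fold lower on t10,c12-CLA. Rpl7a, of the large subunit, gave 19201, 15587 and 13640, with a log2 difference of -0.49. Rps3, which lies at the messenger entry of the small subunit, gave 27927, 19761 and 20042, with a log2 difference of -0.48. In Rpl10a, Rpsa, Rpl7a and Rps3 alike, control stood above both CLA arrays. Rps18, of the head of the small subunit, gave 48580, 53933 and 37459, so that only the t10,c12-CLA array was below control, by a log2 difference of -0.38. The next were Rps10 at -0.34 and Rpl7 at -0.32.

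A further 13 genes had log2 differences between -0.27 and -0.10 on t10,c12-CLA, and Rpl41 stood at -0.02. They include Rpl6 at -0.27, Rps19, a small subunit protein mutated in Diamond-Blackfan anaemia, at -0.24, and Rplp0, the base of the stalk that recruits elongation factors, at -0.23. The 3 genes above 0 were Rps4l, a paralogue of Rps4x, at 0.17, Rpl19 at 0.10 and Rps13 at 0.09. Single differences of this size are within the spread between probe sets of a gene. For genes with several measured probe sets, the disagreement between the 2 brightest corresponds to an SD of 0.40 per log2 difference (546 pairs), and of 0.31 in the 147 pairs with mean signals above 1962. This yardstick covers disagreement between probe sets read on the same arrays. It leaves out errors shared by a whole array, and variation between mice.

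**Figure D2:**
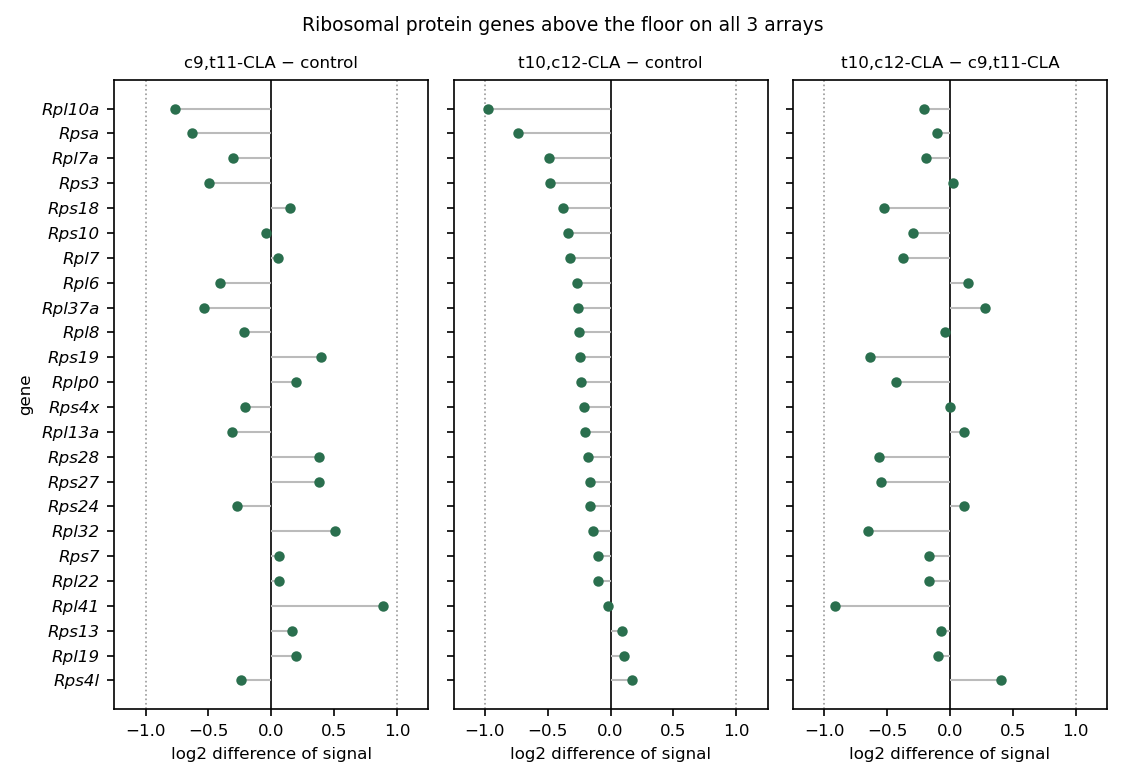
Log2 difference of signal (x) in each of the 3 comparisons for the 24 ribosomal protein genes above the floor on all arrays (y), ordered by t10,c12-CLA minus control, with dotted lines at 2-fold. On t10,c12-CLA 21 of 24 points lie left of 0, while on c9,t11-CLA 12 lie on each side.

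Both subunits showed it. On t10,c12-CLA, 10 of 11 measured large subunit genes were below control, at a median log2 difference of -0.25, and 10 of 12 small subunit genes, at a median of -0.20. Of the proteins shared with bacterial ribosomes 8 of 9 were below control (median -0.32), and of the other members 13 of 15 (median -0.17). All 5 measured members of the head of the small subunit (Rps3, Rps10, Rps18, Rps19 and Rps28) were below control, with a median of -0.34. The head also holds Rps29, the gene with control below the floor that was higher on t10,c12-CLA, and with equal array medians or quantile normalization 5 of 6 were below control. No member of the 5S ribonucleoprotein had a probe set with a single symbol, and of the exit tunnel list Rpl19 alone was measured.

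Probe sets that disagreed in direction were those of Rps28, a small protein of the small subunit head. Its brightest probe set gave 51422 on control, 66878 with c9,t11-CLA and 45321 with t10,c12-CLA, its second 22307, 25383 and 23787, and the dimmest 886.2, 1085 and 1429. The log2 differences on t10,c12-CLA were thus -0.18, 0.09 and 0.69, of which the first and the last come from probe sets with a mark for possible cross-hybridisation or incomplete probe selection. Such marks were on 15 of the 47 probe sets, among them those used for Rpl7, Rpl32, Rpl41, Rps13, Rps24 and Rps4l. The bright probe set annotated to Rps24 carries the same source sequence in the annotation as the bright one of Rpl7. Both are counted as separate genes throughout, so 1 of them may be a repeat. For Rpl7 and Rps24 the log2 differences from control were 0.05 and -0.27 on c9,t11-CLA and -0.32 and -0.17 on t10,c12-CLA. The other probe set of Rps24 gave 363.7, 613.3 and 291.0, so the 39519 to 47801 of the bright one has no second measurement. Many ribosomal protein genes have processed pseudogenes, and whether the probes also read those was not tested.

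Many genes of this family are represented on the array by probe sets that list a pseudogene or another symbol beside the gene. There were 38 such probe sets with 30 distinct ribosomal protein symbols, 29 of them of genes outside the 33, and they are given here together without naming a gene. On t10,c12-CLA all 31 that were above the floor on both arrays were below control, with a median log2 difference of -0.33 and a range of -1.01 to -0.0022. They share the arrays with the 33 genes, so that they add other probes and other genes but no other liver. Rps3a1, whose symbol falls outside the rule, gave 28771 on control, 17385 with c9,t11-CLA and 19071 with t10,c12-CLA, with log2 differences of -0.73 and -0.59.

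Other messengers with a TOP tract were also mostly lower on t10,c12-CLA, in 11 of 12 measured cases with a median log2 difference of -0.42. Eif3e, a subunit of initiation factor 3, stood at -1.05, Btf3, a subunit of the nascent polypeptide-associated complex, at -0.94, and Eif4b, an initiation factor that helps unwind messengers, at -0.85. The exception was elongation factor Eef1a1, which gave 32890 on control, 69048 with c9,t11-CLA and 34088 with t10,c12-CLA. With quantile normalization the median of this list was -0.41 and with equal array medians -0.51. The mitochondrial ribosomal protein genes were below control in 41 of 51 cases, with a median of -0.16, the lowest being Mrps10 at -1.36 and Mrpl58 at -0.92. Mrpl50, which fell below the floor on t10,c12-CLA, was at least 2.28-fold lower. Ribosome biogenesis factors were spread about 0. They were below control in 11 of 24 cases, with a median of 0.03 that was -0.06 with equal array medians and -0.014 with quantile normalization. They ran from Bop1 at -0.87 and the nucleolar chaperone Npm1 at -0.84 to Tcof1, a factor of ribosomal RNA transcription, at 0.80. Npm1 was counted in the TOP list as well. Of the mTORC1 and S6 kinase list 3 of 9 were below control, with a median of 0.32. The list holds parts of the kinase as well as its restraints. Mtor, the kinase itself, stood at 0.63 and its partner Mlst8 at 0.52. Akt1s1, an inhibitory partner of mTORC1, stood at 1.16 and Eif4ebp1, the repressor of cap-dependent initiation that mTORC1 phosphorylates, at 0.13. Sesn1, a restraint on mTORC1, was at -0.14. Ddit4, another restraint on mTORC1, was not counted because control lay below the floor. It gave 381.3 on control, 4100.5 with c9,t11-CLA and 3948.8 with t10,c12-CLA, and was at least 8.36-fold and 8.05-fold higher on the CLA arrays. Ddit4, Mrpl50, Mtor and Mlst8 were chosen after their values were seen. Whether these genes bear on the ribosomal protein signals was not tested.

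**Figure D3:**
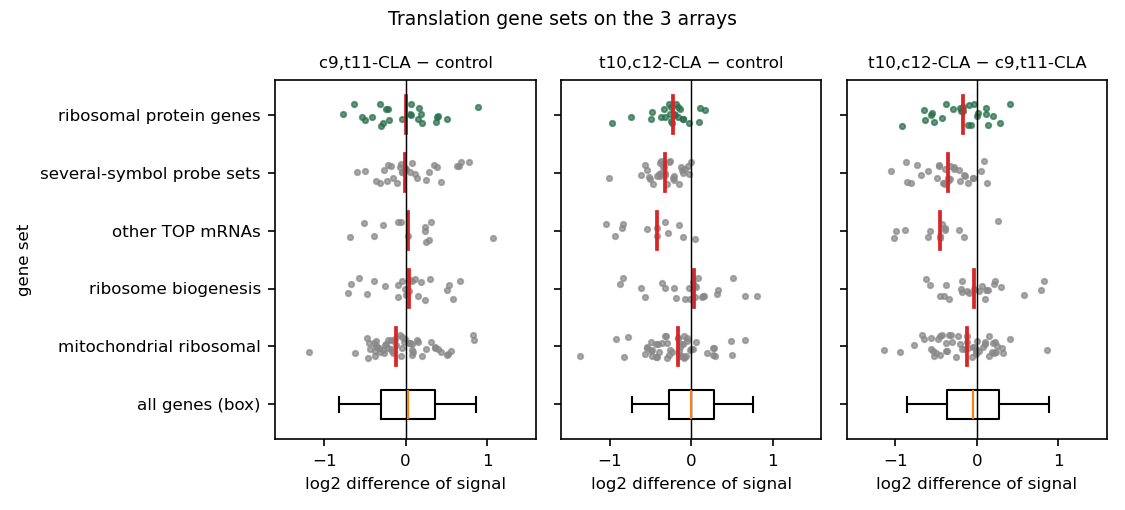
Log2 difference of signal (x) in each comparison for 5 translation gene sets (y), with 1 point per gene or probe set, red bars at set medians and a box of all measured genes with whiskers at the 5th and 95th percentile. On t10,c12-CLA the medians of the ribosomal protein, several-symbol and TOP sets lie at -0.22, -0.33 and -0.42. That of the mitochondrial ribosomal proteins lies at -0.16 and that of ribosome biogenesis at 0.03.

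Brightness and cell markers were set beside this result. Among the other genes with a mean signal of 10000 to 25000, 56.8% were below 0 on t10,c12-CLA with a median log2 difference of -0.08, while all 9 ribosomal protein genes of that range were, with a median of -0.32. Above 25000 it was 58% of the other genes (median -0.10) and 7 of 8 ribosomal protein genes (median -0.21). Both ribosomal protein genes between 2000 and 10000 were below 0, and of the 5 dimmer ones 3 were (60%, median -0.10), beside 49.4% of the other genes of that range. Hepatocyte markers summed to 158604 on control, 302502 on c9,t11-CLA and 159527 on t10,c12-CLA, with 4 of 6 above control on each CLA array. Alb alone gave 28437 on control and 101163 on c9,t11-CLA. Ttr and Ass1 were below control on c9,t11-CLA, with log2 differences of -0.94 and -0.52. Macrophage markers summed to 57126, 48086 and 77933, and all 8 measured were above control on t10,c12-CLA. B cell markers summed to 12742, 11898 and 15964, most of it from Cd74, which macrophages also express, at 8820, 8206 and 12417. Of the 4 measured B cell markers 2 were above and 2 below control on t10,c12-CLA. T and NK cell markers were above the floor in at most 1 of 7 cases per array. Other marker lists also differed from control on t10,c12-CLA. All 3 measured erythroid markers were above control and all 2 neutrophil markers below. Of 4 stellate markers 2 were above and 2 below, and of 3 endothelial markers 2 were above. The part of these cell types in the ribosomal protein signals was not tested.

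On the c9,t11-CLA diet the family had no common direction. Of 24 measured ribosomal protein genes 12 were below control and 12 above, with a median log2 difference of 0.0045 and a range of -0.76 to 0.89. Of all 4324 measured genes 47.8% were below 0, with a median of 0.02. None was 2-fold lower or higher, against 2.78% and 2.98% of all genes. At least 1.5-fold lower were Rpl10a and Rpsa, 2 of 24 (11.1% of all genes), and at least 1.5-fold higher was Rpl41, 1 of 24 (13% of all genes). The direction of the median turned with the scaling. With quantile normalization it was -0.17, with 18 of 25 genes (72%) below 0, while all genes had a median of 0 and 49.9% below 0. With equal array medians it was -0.14, with 17 of 25 (68%) below 0, where all genes moved to a median of -0.15 and 62.8% below 0.

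Rpl10a was 1.70-fold and Rpsa 1.55-fold lower on c9,t11-CLA. Rpl37a, a zinc-binding protein of the large subunit, gave 22214 on control, 15285 on c9,t11-CLA and 18551 on t10,c12-CLA, a log2 difference of -0.54. Rps3 and Rpl6 stood at -0.50 and -0.41. On the other side, Rpl41, one of the smallest known proteins, gave 35009, 64964 and 34450, so that c9,t11-CLA was 1.86-fold above control while the other arrays were nearly equal. Its probe set carries a cross-hybridisation mark. Rpl32 gave 904.0, 1285 and 819.0, with a log2 difference of 0.51, and Rps19 gave 6382, 8380 and 5388, with 0.39. Rps27 and Rps28 both stood at 0.38. For Rps29, with its control signal below the floor, the c9,t11-CLA signal of 869.5 was at least 1.77-fold higher. Rps14 passed the floor on c9,t11-CLA alone, at 530.3. The probe-set yardstick was an SD of 0.50 over 521 pairs and 0.41 for the brighter 147.

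Of the several-symbol probe sets 16 of 30 were below control on c9,t11-CLA, with a median log2 difference of -0.0083. The TOP list had 6 of 13 below control and a median of 0.03, with Eef1a1 at 1.07, and this median was -0.16 with equal array medians and -0.03 with quantile normalization. Mitochondrial ribosomal protein genes were below control in 33 of 53 cases, with a median of -0.11, from Mrpl17 at -1.19 to Mrpl41 at 0.83. Ribosome biogenesis genes were below control in 10 of 23, with a median of 0.04 that was -0.14 with equal array medians. In the mTORC1 and S6 kinase list 2 of 9 were below control, with a median of 0.40. Sesn1 stood at -1.20, Akt1s1 at 1.05, Mtor at 0.28 and Mlst8 at 0.25, beside the uncounted Ddit4 at 8.36-fold or more above control.

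The sign on c9,t11-CLA differed between ranges of brightness, without following it in order. Above a mean signal of 25000, 5 of 8 ribosomal protein genes were above control, with a median log2 difference of 0.17. In the same range the other 143 genes had a median of 0.27, with 26.6% below 0. Between 10000 and 25000, 7 of 9 ribosomal protein genes were below control, with a median of -0.41, against -0.09 and 57.1% below 0 for the other genes. Both genes between 2000 and 10000, Rps19 and Rps27, were above control (median 0.39, against -0.05 for the other genes), and so were 3 of the 5 dimmer ones (median 0.07, against 0.08). After quantile normalization, which gives all arrays the same signal distribution, Rps18 and Rps28 stood at -0.39 and -0.27 instead of 0.15 and 0.38. Rpl41 stayed above control at 0.47, and so did Rps19 at 0.47 and Rps27 at 0.43.

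**Figure D4:**
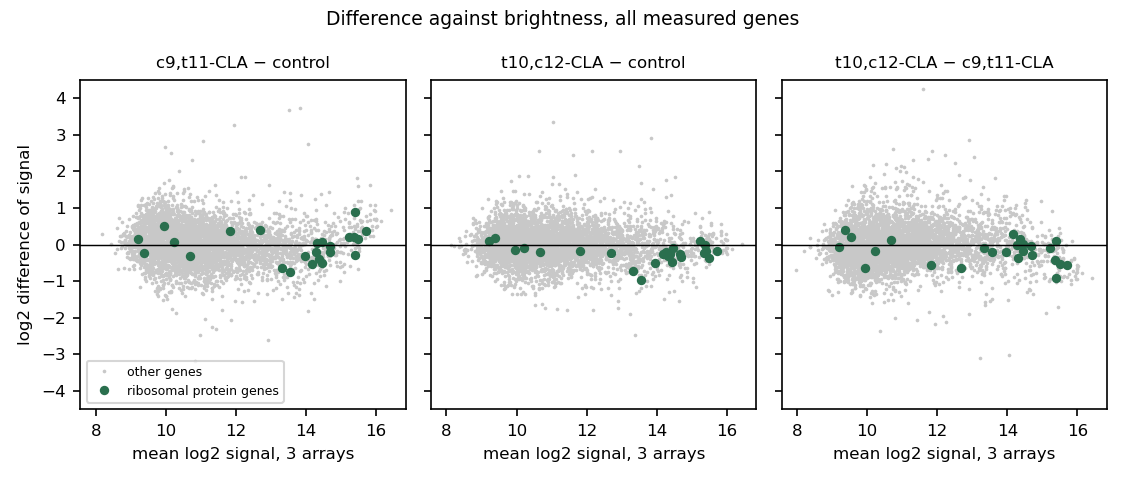
Log2 difference of signal (y) against the mean log2 signal over the 3 arrays (x) for all measured genes in each comparison, with the ribosomal protein genes in green. In c9,t11-CLA minus control the brightest ribosomal protein genes lie mostly above 0 and those of 10000 to 25000 mostly below. In t10,c12-CLA minus control 7 of the 8 brightest and all 9 of the other group lie below.

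The isomers were also set against each other, at equal dose and time, in a comparison that shares its arrays with those above. Ribosomal protein genes were lower on t10,c12-CLA than on c9,t11-CLA in 17 of 25 measured cases, against 54.2% of all 4382 genes, with a median log2 difference of -0.17 beside -0.05 for all genes. None was 2-fold lower (2.56% of all genes) and 3 were at least 1.5-fold lower (12.8%), namely Rpl41 at -0.92, Rpl32 at -0.65 and Rps19 at -0.64. Rps28 and Rps27 followed at -0.56 and -0.55. None was 2-fold (3.47% of all genes) or 1.5-fold (11.5%) higher, and the largest positive values were those of Rps4l at 0.41, Rpl37a at 0.28 and Rps29 at 0.20. Rpl10a, Rpsa and Rps3, which were lower than control on both CLA diets, stood at -0.21, -0.10 and 0.02 between the isomers, inside the yardstick SD of 0.49 (0.39 for the brighter pairs). Without replicates no interval can be given for these differences, so they do not show that the isomers acted alike on these genes. Among genes brighter than 25000 the ribosomal protein genes had a median of -0.36 and the others one of -0.39. The several-symbol probe sets were lower on t10,c12-CLA than on c9,t11-CLA in 27 of 30 cases (median -0.35) and the TOP list in 12 of 13 (median -0.45). With equal array medians the median of the 25 ribosomal protein genes was -0.061, with 13 (52%) below 0, against 0.05 and 45.7% for all genes. With quantile normalization it was -0.094, again with 13 of 25 (52%) below 0, against -0.03 and 52.5% of all genes, so the share below 0 was then that of all genes.

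The order of the 3 arrays was then read within each gene. Of the 24 ribosomal protein genes above the floor on every array, t10,c12-CLA was the lowest array in 15, c9,t11-CLA in 7 and control in 2. For all 4154 genes above the floor on every array those shares were 34.2%, 33.2% and 32.7%. The most frequent order, c9,t11-CLA above control above t10,c12-CLA, held for 10 genes (Rpl22, Rpl32, Rpl41, Rpl7, Rplp0, Rps18, Rps19, Rps27, Rps28 and Rps7), or 41.7%, against 19.1% of all genes. Control was the highest array in 11 genes, of which Rpl10a, Rpl7a, Rpl8, Rps10 and Rpsa had t10,c12-CLA lowest, and Rpl13a, Rpl37a, Rpl6, Rps24, Rps3 and Rps4x had c9,t11-CLA lowest. The t10,c12-CLA array was the highest for Rps4l alone. Among the 30 several-symbol probe sets above the floor on every array, t10,c12-CLA was the lowest array for 27. These orders restate the comparisons above and share their arrays. They were counted on the signals as deposited, and the counts were not repeated with other scaling. Equal array medians lower each difference of c9,t11-CLA from control by the same amount, and Rpl10a, for instance, went from -0.76 to -0.96. Rpl7, Rpl22 and Rps7, at 0.05, 0.07 and 0.06 as deposited, then lie below control, as does Rps18 at -0.04. The most frequent order does not hold for any of these with that scaling. Below control were then 17 of 25 genes, beside 12 of 24 as deposited. With quantile normalization Rps18 and Rps28 stood at -0.39 and -0.27, so the most frequent order did not hold for them there.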

How the data were processed

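Liver RNA of 3 diet groups was hybridised to 1 Affymetrix array each, as biotinylated cRNA made from 8 µg of total RNA per the labels' protocols. The deposited values are MAS5 signal intensity values per probe set, scaled before deposit, as their equal 2%-trimmed means show; MAS5 is named, without a version, in the submitters' processing notes. Of 12488 probe sets, 66 were array controls, 10833 had 1 annotated symbol, 396 several and 1193 none in the annotation used. Updating symbols through Entrez identifiers (RefSeq table, GRCm38.p6) changed no member's symbol. Log2 differences were taken from the signals without further scaling, with the floor and the brightest-probe-set rule of the report, and 2-fold and 1.5-fold were the sizes counted. The number of arrays limits the precision. Genes were named as the 5 largest differences in each direction per comparison, the members of the small lists and genes with disagreeing probe sets. Up to 4 genes of each other list were also named, beside those said to be chosen after their values were seen. Other members are named to account for them. The members and lists were chosen with earlier results of these data known. Alternatives were arrays of equal median or equal distribution (quantile normalization), a lower and a higher floor (the 25th or the 75th percentile), 50 signal units added before log2, averaging a gene's probe sets, dropping marked probe sets and updated symbols, and, added after seeing the data, counting each probe set and the several-symbol probe sets. The steps were tested on simulated data. Python 3.11.15, numpy 2.4.6, pandas 2.3.3, scipy 1.17.1 and matplotlib 3.10.9 were used.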

Additional observations from a re-analysis of the deposited data

How the results depend on the processing

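No paired analysis was possible because each diet has 1 array, and for the same reason no array could be left out. For t10,c12-CLA against control the median of the ribosomal protein genes was below 0 under every alternative tried. It was -0.33 with the several-symbol probe sets. For c9,t11-CLA against control the median of 0.0045 turned negative with equal array medians (-0.14), quantile normalization (-0.17), a floor at the 75th percentile (-0.044), without marked probe sets (-0.13) and with several-symbol probe sets (-0.0083). Between the isomers it was -0.061 with equal medians, -0.094 with quantile normalization and -0.35 with several-symbol probe sets, of which 27 of 30 were below 0.

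Counts past a fold were small and moved with the settings. At 1.5-fold or more higher on c9,t11-CLA than control were 2 genes with equal medians, 3 with a floor at the 25th percentile, 0 without marked probe sets and 4 several-symbol probe sets, and lower were 5 with equal medians and 1 several-symbol probe set. On t10,c12-CLA against control, 1 gene was 1.5-fold higher with equal medians, quantile normalization, the 25th percentile floor or each probe set counted, and 1 was 2-fold higher with quantile normalization or the 25th percentile floor. 1 was 2-fold lower with equal medians, the mean over probe sets, each probe set counted or several-symbol probe sets. Between the isomers, 1 gene was 1.5-fold lower with equal medians or without marked probe sets and 7 several-symbol probe sets were, 1 of them 2-fold, and 1 gene was 1.5-fold higher with the 25th percentile floor. Of the named genes' values, counted per comparison and alternative, 365 moved by less than the yardstick SD and 3 by more. Many of them could not move, since another floor or updated symbols leave a measured value as it was. A change of sign within the yardstick SD counted as unmoved. Rps28 on t10,c12-CLA against control, for instance, went from -0.18 to 0.09 without marked probe sets. Without detection calls, signals near the floor cannot be told from background.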
